A study of Arabidopsis thaliana with 13 samples.

Results

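Shoots of Arabidopsis thaliana seedlings in which the transcription factor gene ANAC092 was switched on for 5 h were compared with shoots of empty vector seedlings. The comparison took the 3 arrays of the inducible ANAC092 line and the 3 empty vector arrays that had been normalized with them, 6 of the 13 arrays of the series, chosen by their titles. ANAC092 induced seedlings carried an estradiol-inducible ANAC092 construct, and empty vector seedlings carried the same inducible system without a factor. Both groups were in a Col-0 background, were 3 weeks old, had grown on solid medium with sucrose and an antibiotic, and received 10 µM estradiol for 5 h before the shoots were taken. The empty vector group therefore shares the estradiol, the vector and the handling. The numbers of transgenic lines and of plants per array are not stated in the labels. Under the annotation used, no probe set of the Affymetrix ATH1 array carries the name ANAC092, so the level of the induced gene was not examined and the labels were not checked in that way.

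ANAC092, also called ORE1, belongs to the plant-specific NAC family of transcription factors and is one of the best known promoters of leaf ageing. During leaf senescence a leaf takes down its chloroplasts and proteins in an ordered way, exports sugars and nitrogen to the rest of the plant and ends in cell death. Enzymes that cut proteins, cell walls and nucleic acids, transporters that move sugars and the autophagy machinery take part in this process. Estradiol induction serves to catch the transcripts that change soon after the factor appears, and the comparison asks which those are.

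All levels are deposited log2 signals from the RMA method, and each difference is the mean of the induced arrays minus that of the empty vector arrays on this scale, with the moderated standard error (SE) of limma. A probe set is called where its Benjamini-Hochberg adjusted p in limma, over 22746 probe sets, is under 0.05. The titles call the arrays biological replicates, but nothing says how separately the seedlings were grown, so the p-values measure only the spread between these arrays. That spread was uneven. As the SD of the difference across probe sets, the distance was 0.129 between induced replicates 1 and 3 and 0.343 to 0.364 from either to replicate 2, and it was 0.178 between empty vector replicates 1 and 2 and 0.351 to 0.386 from either to replicate 3. Whether induced replicates 1 and 3 share an RNA sample was not tested. If they do, n is 2 and the p-values that count them apart are too small, and with the pair averaged as 1 replicate 242 probe sets were called in place of 507. Any induced array lay 0.31 to 0.535 from any empty vector array, a range that overlaps the distances within each group. Each change below was therefore also set against each empty vector array alone. Markers of other tissues showed no call. The root marker PYK10 stood at 11.77, 11.86 and 11.88 in induced shoots and at 11.65, 11.31 and 11.82 in empty vector shoots. The epidermal marker FDH (-0.44), the trichome gene TRY (-0.08), the guard cell gene FMA (-0.09) and the root hair gene EXPA7 (0.13) did not pass either. No mesophyll, phloem, xylem, flower or cell division marker was measured, but nuclear photosystem and light-harvesting genes had median levels of 11.42 to 11.79 on the induced arrays and 11.00 to 11.85 on the empty vector arrays.

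After 5 h of ANAC092 induction a small part of the probe sets was called, and the strong calls were nearly all rises. Limma called 507 of 22746 probe sets (2.23%), 318 of them higher (1.4%) and 189 lower (0.831%). Of the rises, 57 reached 2 and 14 reached 4 on the log2 scale, while 2 falls reached 2 and 0 reached 3. The median change was 1.07 over the called rises and -0.80 over the called falls, against -0.03 over all probe sets. A further 2227 uncalled probe sets had an unadjusted p under 0.05, so an uncalled probe set is not shown to be unchanged. Called falls started from brighter probe sets than called rises. In the empty vector arrays 45.3% of the risen probe sets and 4.76% of the fallen ones averaged below 7.68, the median level of all probe sets. The share of the rises was thus near that of all probe sets, which a median divides evenly.

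The set of changes that held against every control array was smaller and even more one-sided. The induced mean differed by at least 1 from each of the 3 empty vector arrays at 171 called probe sets (0.752% of those tested), 143 of them higher (0.629%) and 28 lower (0.123%). That is 45% of the rises and 14.8% of the falls. Of all 507 calls, 178 passed in each of 6 leave-one-out fits, which drop 1 array at a time, 148 of the rises and 30 of the falls. All 507 had induced arrays that did not overlap the empty vector arrays, as had 20.4% of all probe sets. The empty vector array nearest to the induced ones varied with the probe set. Among the rises the nearest control was replicate 1 at 118 probe sets, replicate 2 at 81 and replicate 3 at 119, and among the falls it was replicate 1 at 27, replicate 2 at 81 and replicate 3 at 81. Median changes of the rises were 1.05, 1.07 and 1.12 against empty vector replicates 1, 2 and 3, and those of the falls were -0.84, -0.77 and -0.79. The number of calls depended more on the array left out, with 787 probe sets called without empty vector replicate 3, 219 without replicate 1 and 209 without replicate 2.

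**Figure D1:**
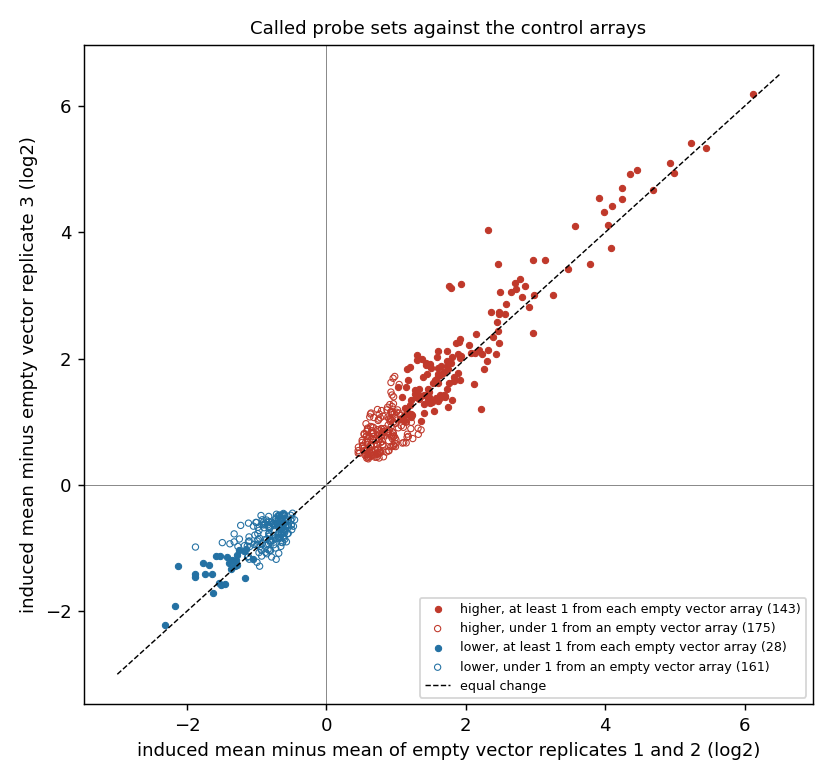
Each point is 1 of the 507 called probe sets. The horizontal axis is the induced mean minus the mean of empty vector replicates 1 and 2, and the vertical axis is the induced mean minus empty vector replicate 3, both in log2 units. Filled points differ by at least 1 from each empty vector array (143 higher, 28 lower), open points do not, and the dashed line marks equal change. No called probe set changes sign between the axes, which follows from groups that do not overlap.

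Of the 507 calls, 240 were probe sets with exactly 1 gene in the annotation, and 46 of those genes have a symbol, 28 higher and 18 lower. The 28 rises ranged from 0.58 to 4.55 and 17 of them reached 1 against each empty vector array. The 18 falls ranged from -1.66 to -0.58, and 2 of them reached 1 against each empty vector array. In the leave-one-out fits, 13 of the 28 rises and 1 of the 18 falls passed every time. Differences in a whole shoot do not tell a change in RNA per cell from a change in the number of cells of a type.

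**Figure D2:**
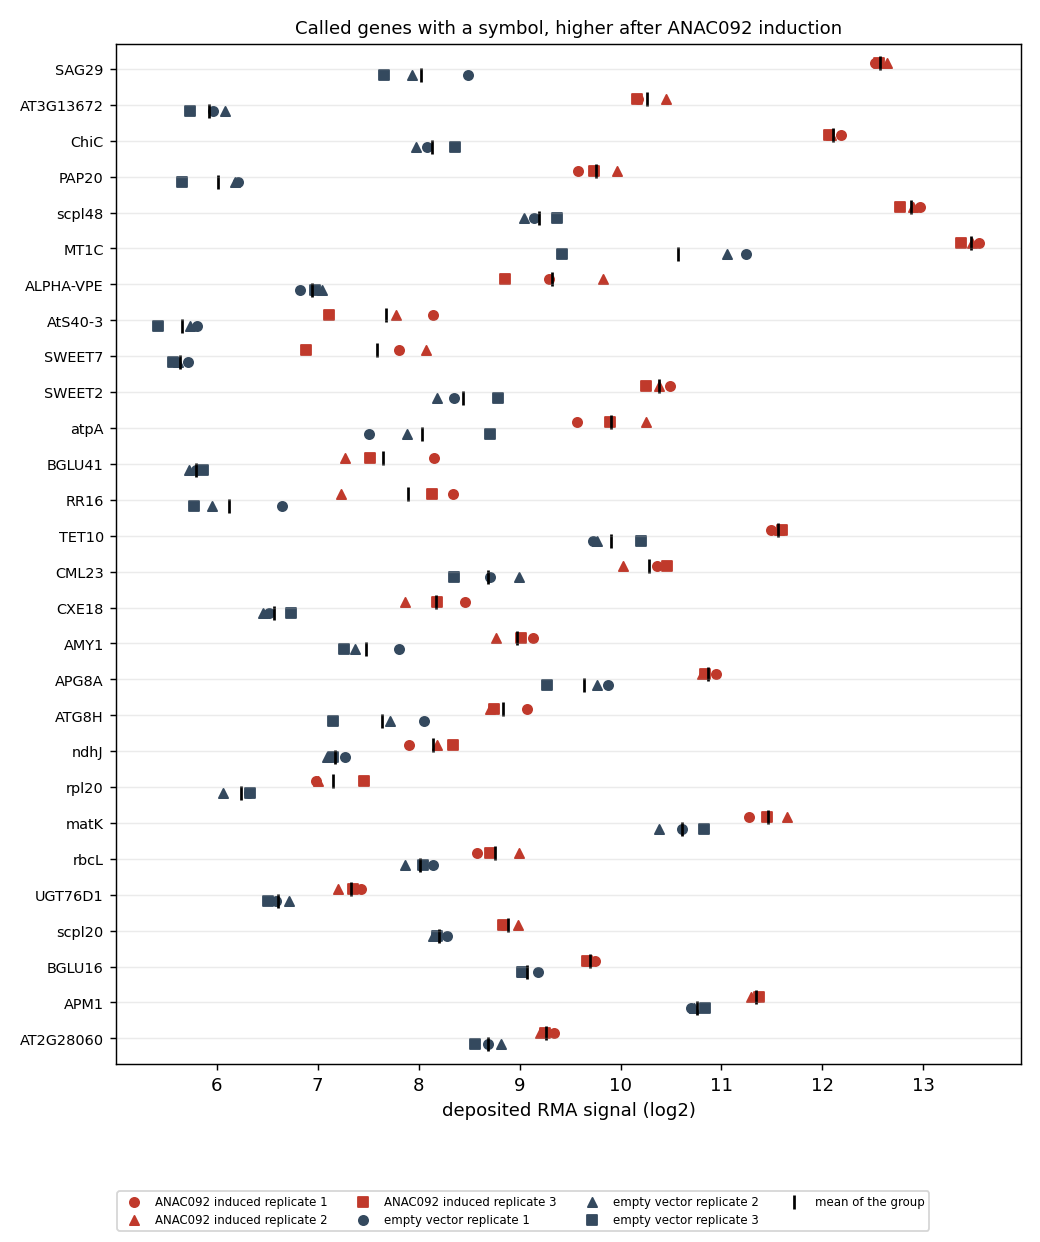
The 28 called genes with a symbol that were higher after ANAC092 induction, from the largest difference at the top. Points are the deposited log2 signals of single arrays, induced in red above and empty vector in dark blue below for each gene, with the replicate given by shape and the group mean by a black tick. For SAG29, ChiC, scpl48 and PAP20 the groups lie more than 3 units apart, and for MT1C and atpA the empty vector arrays themselves span more than 1 unit. AT3G13672 is the gene also listed as SINA2.

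Counts of called members in the gene groups below stand beside 1.24% of all 13286 genes called higher and 0.549% called lower, 1.79% together. Each list was filled by gene symbol or listed name, except that of the chloroplast genome, which was taken by location. Genes given by locus only are therefore in no list, and a family may have called members outside its list. The protease genes scpl48 and ALPHA-VPE rose. scpl48, which encodes a serine carboxypeptidase-like protein of the kind found in developing vessels that die as they mature, stood at 12.97, 12.89 and 12.77 on the induced arrays and at 9.15, 9.04 and 9.37 on the empty vector arrays. The groups lay far apart, and the rise was 12.9-fold (log2 3.69 ± 0.12 SE, n = 3 per group, limma adjusted p = 1.31e-05). It was 3.73, 3.83 and 3.50 against empty vector replicates 1, 2 and 3. ALPHA-VPE encodes a vacuolar processing enzyme, a cysteine protease that matures vacuolar proteins and acts in plant cell death, and stood at 9.29, 9.82 and 8.86 in induced shoots against 6.83, 7.04 and 6.97 in empty vector shoots. All 3 induced arrays were higher although they were less tight than the controls, and the difference against each control was 2.49, 2.28 and 2.35 (adjusted p = 0.00201, limma). The other vacuolar processing enzyme genes did not follow: GAMMA-VPE was at -0.17, BETA-VPE at -0.08 and DELTA-VPE at -0.08, so 1 of 4 measured members passed. No call was made among the 11 subtilase genes (median 0.03), 2 aspartyl protease genes or 1 papain-like protease gene that were listed and measured.

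The listed carboxypeptidase genes as a whole were flat. Of 29 measured serine carboxypeptidase genes 2 rose (6.9%) and 0 fell, with a median of -0.01, beside a median of -0.02 over all genes. The second riser, scpl20, stood at 8.83, 8.99 and 8.83 on the induced arrays against 8.28, 8.14 and 8.18 on the empty vector arrays, a difference of 0.68. APM1, which encodes an aminopeptidase, stood at 11.36, 11.29 and 11.37 in induced shoots against 10.70, 10.73 and 10.84 in empty vector shoots, a difference of 0.59. Both groups of arrays were tight in these small rises, but the calls were lost without induced replicate 1 or 3 or empty vector replicate 1 or 2 (limma adjusted p 0.0266 to 0.0963 for scpl20 and 0.0181 to 0.15 for APM1). SCPL34 was at -0.65 and did not pass.

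ChiC, PAP20, BGLU41 and CXE18, hydrolase genes with other substrates, also rose. ChiC, which encodes a chitinase, an enzyme that splits a polymer of fungal walls, stood at 12.18, 12.08 and 12.06 on the induced arrays and at 8.08, 7.97 and 8.36 on the empty vector arrays. The rise was 15.7-fold (log2 3.97 ± 0.12 SE, limma adjusted p = 1.19e-05), smallest against empty vector replicate 3, at 3.75. PAP20, which encodes a purple acid phosphatase that releases phosphate from organic compounds, stood at 9.58, 9.96 and 9.74 in induced shoots and at 6.21, 6.18 and 5.65 in empty vector shoots. Here the difference was largest against replicate 3, at 4.11, and at least 3.55 against the others. BGLU41, a beta-glucosidase gene, stood at 8.16, 7.27 and 7.51 on the induced arrays against 5.80, 5.73 and 5.87 on the empty vector arrays, where all 3 values were low and close together, and rose by 1.85 ± 0.21. CXE18, which encodes a carboxylesterase, stood at 8.46, 7.86 and 8.18 in induced shoots against 6.52, 6.46 and 6.74 in empty vector shoots, a rise of 1.60 ± 0.17. ChiC, PAP20, BGLU41 and CXE18 passed in all 6 leave-one-out fits. Among 22 measured beta-glucosidase genes 2 rose (9.09%, against 1.24% of all genes) and 0 fell, with a median of 0.04. The second riser was BGLU16 at 0.62, whose call was lost without induced replicate 1 or 3 or empty vector replicate 1 or 2 (adjusted p 0.0312 to 0.125). Among the listed and measured genes, 6 of lipases and phospholipases, 2 of nucleases and 1 of beta-galactosidases and xylosidases, 0 were called. Any members given by locus only are outside these counts, so the families as a whole are not shown to be unchanged.

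SAG29, SWEET2, SWEET7 and AMY1, genes of sugar transport and starch breakdown, rose while most measured members of their groups did not pass. SAG29, also known as SWEET15, encodes a sucrose-exporting SWEET transporter and is a classical senescence marker. It stood at 12.52, 12.64 and 12.56 on the induced arrays and at 8.49, 7.93 and 7.65 on the empty vector arrays. The induced arrays were close together and the controls spread over almost a unit, which left a rise of 23.4-fold (log2 4.55 ± 0.20 SE, limma adjusted p = 4.76e-05) that was smallest against empty vector replicate 1, at 4.09. SWEET2, whose protein carries sugar across the vacuolar membrane, stood at 10.49, 10.38 and 10.25 in induced shoots and at 8.35, 8.18 and 8.78 in empty vector shoots, a rise of 1.94 ± 0.16 that was smallest against empty vector replicate 3, at 1.60. SWEET7 stood at 7.80, 8.07 and 6.88 on the induced arrays and at 5.72, 5.61 and 5.57 on the empty vector arrays. The groups did not overlap, but induced replicate 3 was clearly below the other induced arrays. The rise of SWEET7 was 1.95 ± 0.28 and was lost without induced replicate 1 or empty vector replicate 1 or 2 (limma adjusted p 0.000602 to 0.0735). The remaining 13 of 16 measured SWEET genes did not pass, among them SWEET17 at 0.41 and SWEET8 at -0.27, and the median was -0.02. The 3 rises were 18.8% of the family, against 1.24% of all genes. Among 5 measured genes in the list of other sugar, sucrose and polyol transporters 0 were called, with a median of -0.08.

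AMY1, which encodes a secreted alpha-amylase, stood at 9.13, 8.76 and 9.01 in induced shoots and at 7.81, 7.37 and 7.26 in empty vector shoots. It rose by 1.49 ± 0.17 and by at least 1.16 against each control. It was the only riser among 6 measured sugar and starch genes (median 0.18). The gene cwINV6, named for the cell wall invertases, was at 0.69 with groups that did not overlap but did not pass (adjusted p = 0.0615, limma). AT2G28060, listed as KINbeta3, a subunit gene of the energy-sensing kinase SnRK1, stood at 9.34, 9.20 and 9.25 on the induced arrays against 8.69, 8.81 and 8.56 on the empty vector arrays. Its rise of 0.58 was among the smallest called and passed only without empty vector replicate 3 among the leave-one-out fits (limma adjusted p 0.0461 to 0.187).

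Beyond SAG29, marker genes of senescence gave a mixed picture. AtS40-3, a member of a senescence regulator family, stood at 8.15, 7.78 and 7.11 in induced shoots and at 5.80, 5.74 and 5.41 in empty vector shoots, a rise of 2.03 ± 0.25. All 3 induced arrays were above the controls, with replicate 3 lowest, and the call passed in all 6 leave-one-out fits. Of the 5 measured genes in the senescence marker list only SAG29 passed. The transcription factor gene WRKY6 stood at 9.55, 9.45 and 9.37 on the induced arrays and at 10.10, 9.90 and 10.40 on the empty vector arrays, lower on all induced arrays, but at -0.68 it missed the threshold (limma adjusted p = 0.0656). WRKY53, SAG101 and YLS5 were at 0.38, 0.21 and -0.34. For WRKY53 and SAG101 empty vector replicate 3 was the highest of the 6 arrays. The chlorophyll breakdown gene NOL, the only measured one of its list, was at 0.20.

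Autophagy engulfs cell contents in membrane vesicles and delivers them to the vacuole, and ATG8 proteins are the ubiquitin-like tags on those membranes. APG8A stood at 10.94, 10.81 and 10.84 in induced shoots and at 9.87, 9.76 and 9.27 in empty vector shoots, a rise of 1.23 ± 0.16. ATG8H stood at 9.07, 8.70 and 8.75 on the induced arrays and at 8.05, 7.71 and 7.15 on the empty vector arrays, a rise of 1.20 ± 0.23. In both genes empty vector replicate 3 was the lowest array. Against replicates 1, 2 and 3 the differences were 0.99, 1.1 and 1.59 for APG8A and 0.79, 1.13 and 1.69 for ATG8H. The call of APG8A was lost without induced replicate 1 (limma adjusted p 0.00691 to 0.0506), and that of ATG8H without any one induced array or empty vector replicate 2 (0.0412 to 0.154). The other 9 of 11 measured genes of the autophagy list did not pass, from ATG8E at -0.22 to AT5G66930 at 0.65. The median over the 11 was 0.41, but it was 0.12 against replicate 1, 0.11 against replicate 2 and 0.96 against replicate 3. The shift of these 11 listed genes therefore lies in the distance to replicate 3 more than to the other controls. Any autophagy genes given by locus only are outside this list, and their changes may differ.

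Among regulators, single members of larger families rose. AT3G13672, also listed as SINA2 and named for a family of ubiquitin ligases, stood at 10.17, 10.45 and 10.17 in induced shoots and at 5.96, 6.08 and 5.73 in empty vector shoots. It rose 20.2-fold (log2 4.34 ± 0.13 SE, limma adjusted p = 1.19e-05). It was the only one called of 71 measured genes in the list of ubiquitin ligases and conjugating enzymes, whose median was 0.01. That is 1.41% of the list, close to the 1.24% of all genes called higher. CML23, which encodes a calmodulin-like calcium sensor, stood at 10.36, 10.02 and 10.46 on the induced arrays and at 8.70, 9.0 and 8.35 on the empty vector arrays, a rise of 1.60 ± 0.19. Its relative CML38 stood at 10.38, 10.20 and 9.95 in induced shoots and at 11.87, 11.58 and 10.56 in empty vector shoots, with a difference of -1.16 that did not pass (adjusted p = 0.154, limma). Of 9 listed and measured genes of this family 1 rose and 0 fell. TET10, which encodes a tetraspanin, a membrane protein that organises other proteins at the cell surface, stood at 11.49, 11.57 and 11.60 on the induced arrays and at 9.73, 9.77 and 10.21 on the empty vector arrays, a rise of 1.66 ± 0.14. AT3G13672, CML23 and TET10 passed in all 6 leave-one-out fits.

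The calls of RR16 and MT1C depended on single arrays. RR16, a type-A response regulator gene of the cytokinin pathway, stood at 8.34, 7.23 and 8.13 in induced shoots and at 6.65, 5.95 and 5.78 in empty vector shoots. Its difference of 1.77 ± 0.33 passed among the leave-one-out fits only without induced replicate 2 (limma adjusted p 0.0222 to 0.171), and the other measured cytokinin gene, ARR15, was at -0.19. MT1C, which encodes a metallothionein, a small metal-binding protein, stood at 13.56, 13.49 and 13.37 on the induced arrays and at 11.24, 11.06 and 9.42 on the empty vector arrays. The induced arrays agreed closely and the control arrays did not. The difference of MT1C was 2.23, 2.41 and 4.05 against empty vector replicates 1, 2 and 3, and its call was lost without any one of the induced arrays (limma adjusted p 0.000899 to 0.0763).

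**Figure D3:**
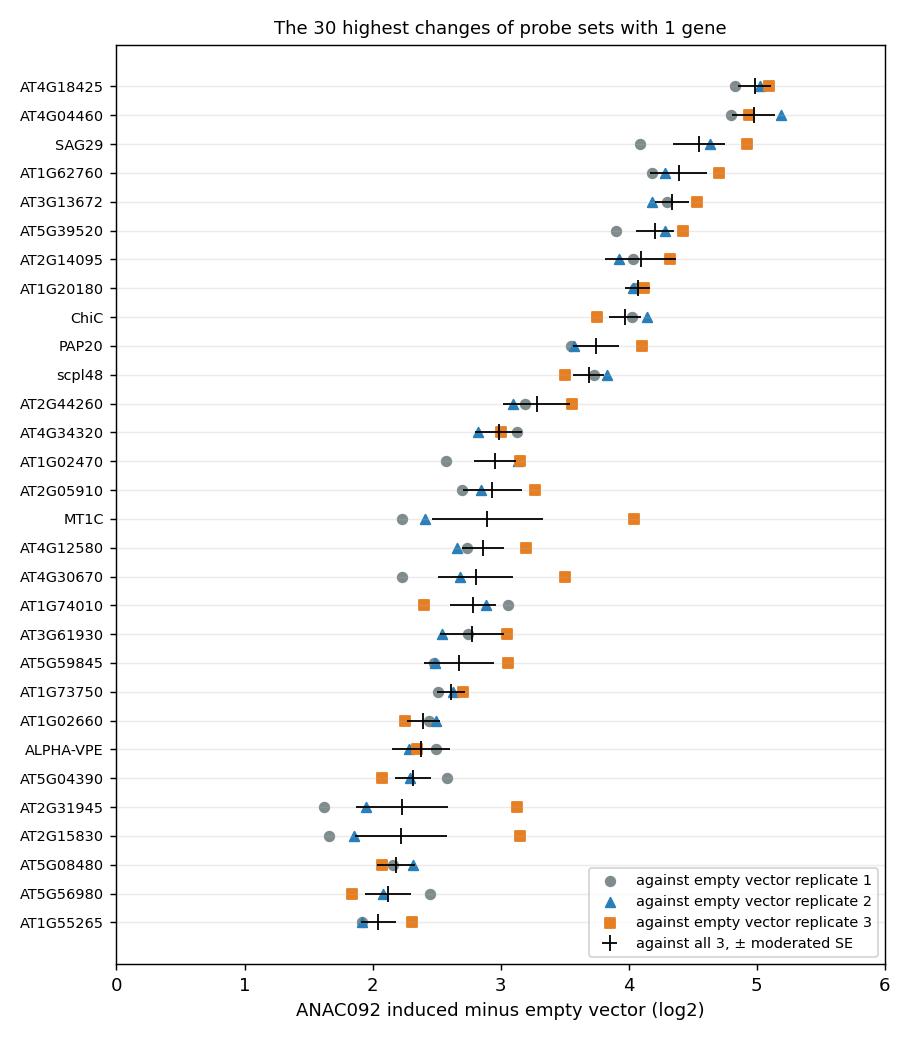
The 30 highest called rises of probe sets with 1 gene, from the largest at the top. The horizontal axis is the induced mean minus the empty vector level in log2 units, with a symbol for the difference against each of the 3 empty vector arrays and a tick with a bar for the difference against all 3 with its moderated SE. All 30 differences exceed 1 against each array, and MT1C, AT2G31945 and AT2G15830 show the largest gap between replicate 3 and the other controls.

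Most of the strongest rises belong to genes that the annotation gives by locus only. To which families those genes belong was not examined. Among the 30 highest changes of probe sets with 1 gene, from 4.98 down to 2.05, 23 had no symbol. All 30 differed by at least 1 from each empty vector array, and 27 passed in every leave-one-out fit. AT4G18425 stood at 11.07, 11.08 and 10.79 in induced shoots and at 6.15, 5.96 and 5.88 in empty vector shoots. AT4G04460 stood at 10.99, 11.29 and 10.75 on the induced arrays and at 6.22, 5.82 and 6.07 on the empty vector arrays. Both differed by 4.98, and in each case all 3 controls were below 7.68, the median level of the empty vector arrays. AT1G20180 had the tightest values of the group, 9.13, 9.10 and 8.96 in induced shoots against 5.01, 5.03 and 4.94 in empty vector shoots (log2 4.07 ± 0.10 SE, limma adjusted p = 5.97e-06). In contrast AT1G02470 was well above the array median in both groups, at 11.81, 11.73 and 11.75 in induced shoots and 9.19, 8.63 and 8.61 in empty vector shoots. AT1G74010 likewise stood at 11.60, 11.58 and 11.31 on the induced arrays and at 8.44, 8.61 and 9.09 on the empty vector arrays.

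In AT2G31945 and AT2G15830 the size of the rise depended on the control. AT2G31945 rose by 1.62, 1.94 and 3.13 against empty vector replicates 1, 2 and 3, and AT2G15830 by 1.66, 1.85 and 3.15. Both calls were lost without any one induced array or without empty vector replicate 2 (limma adjusted p 0.0101 to 0.102 and 0.00453 to 0.0974). AT1G62760 has a pair of probe sets that disagree. The brighter, 262640_at, rose by 4.39, and the dimmer, 262692_at, stood at 5.25, 5.49 and 5.16 in induced shoots and 5.18, 5.40 and 5.09 in empty vector shoots, a difference of 0.08 that did not pass (adjusted p = 0.872, limma). The other loci of the 30 were AT5G39520 (4.20), AT2G14095 (4.10), AT2G44260 (3.28), AT4G34320 (2.99), AT2G05910 (2.94), AT4G12580 (2.86), AT4G30670 (2.81), AT3G61930 (2.78), AT5G59845 (2.68), AT1G73750 (2.62), AT1G02660 (2.40), AT5G04390 (2.32), AT5G08480 (2.18), AT5G56980 (2.12) and AT1G55265 (2.05). All of these passed in the 6 leave-one-out fits.

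Probe sets without a gene name made up 254 of the 507 calls, 144 higher and 110 lower, and another 13 carry several genes each and are not named. The highest change of the whole array was one of them. The probe set 257944_at stood at 11.24, 11.26 and 10.43 in induced shoots and at 4.96, 4.76 and 4.78 in empty vector shoots, a 70.7-fold rise. The probe set 257943_at stood at 11.01, 10.95 and 10.19 on the induced arrays and at 5.26, 5.27 and 5.38 on the empty vector arrays. In both, induced replicate 3 was the lowest induced array, yet far above all controls.

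Genes encoded in the chloroplast genome mostly had differences above 0, few of which passed. Of 69 measured chloroplast genes 58 were above 0, 5 rose and 0 fell. At 34 the induced arrays all lay above the empty vector arrays and at 0 all below, beside 7.63% and 11.1% of all genes, and the median difference was 0.42, or 0.23, 0.35 and 0.54 against empty vector replicates 1, 2 and 3. atpA, which encodes the alpha subunit of the chloroplast ATP synthase, stood at 9.56, 10.26 and 9.89 in induced shoots and at 7.50, 7.88 and 8.71 in empty vector shoots. Its rise of 1.87 ± 0.31 was 1.20 against empty vector replicate 3 and at least 2.02 against the others. The rest were ndhJ, of the chloroplast NADH dehydrogenase-like complex (0.97), the ribosomal protein gene rpl20 (0.91), the intron maturase gene matK (0.85) and rbcL, the large subunit of the carbon-fixing enzyme Rubisco (0.75). Each of the 5 missed the threshold in at least 3 of the 6 leave-one-out fits. The limma adjusted p was 0.011 to 0.124 for atpA, 0.0142 to 0.0739 for ndhJ, 0.0533 to 0.14 for rpl20, 0.0287 to 0.144 for matK and 0.0708 to 0.183 for rbcL. The call of atpA was lost without induced replicate 2 or 3 or empty vector replicate 1 or 2, and that of ndhJ without induced replicate 3 or empty vector replicate 1 or 2. That of matK passed only without empty vector replicate 3, and those of rpl20 and rbcL passed in none.

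Control probe sets for RNA quality separated the groups only in part. The actin signal at the 3′ end minus that at the 5′ end was 2.47, 2.89 and 2.44 in induced shoots and 1.96, 2.19 and 2.51 in empty vector shoots. In a second pair of actin probe sets the values were 1.01, 1.08 and 0.938 in induced shoots and 0.76, 0.858 and 0.908 in empty vector shoots. The GAPDH pair gave 0.129, 0.177 and 0.254 in induced shoots and 0.509, 0.0655 and -0.14 in empty vector shoots, and the ubiquitin pair 0.846, 0.83 and 0.77 in induced shoots and 0.758, 0.823 and 0.794 in empty vector shoots. The signal of 25S ribosomal RNA was 12.66, 12.88 and 12.86 in induced shoots and 13.16, 13.24 and 13.31 in empty vector shoots. The groups overlapped in the first actin, GAPDH and ubiquitin pairs. They did not overlap in the second actin pair, higher after induction, and in 25S ribosomal RNA, lower after induction. Their part in the chloroplast result was not tested.

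**Figure D4:**
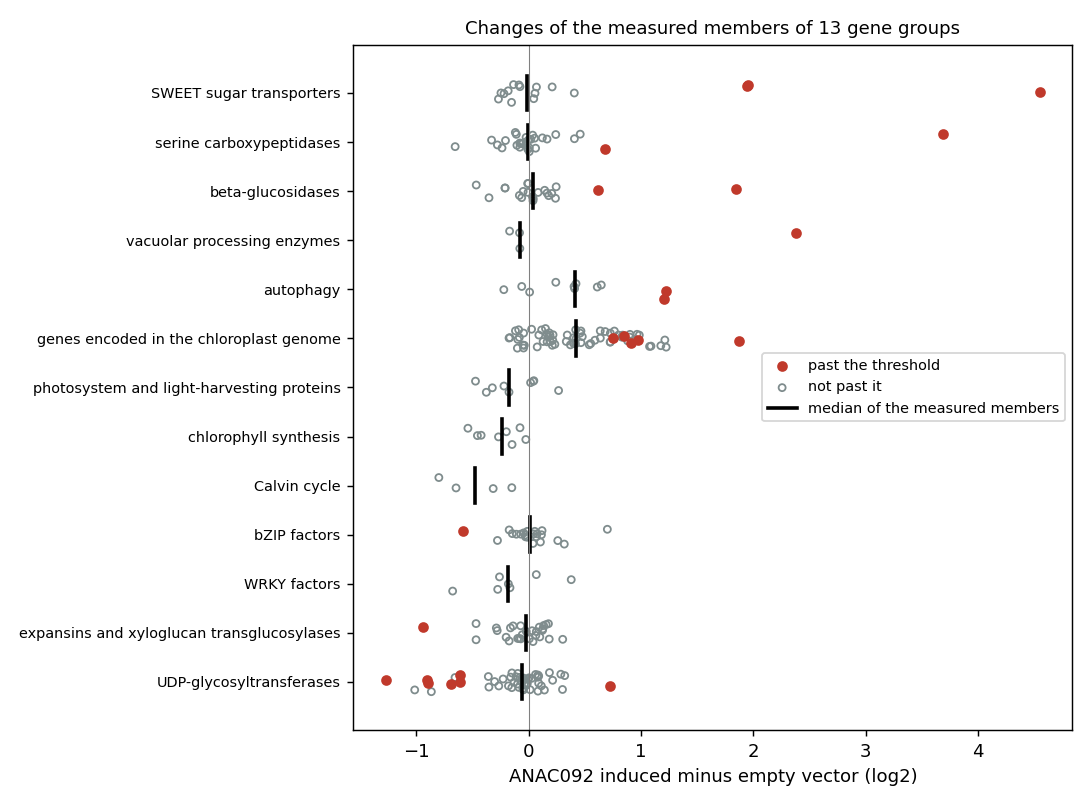
Differences of the measured members of 13 gene groups in log2 units, 1 point per gene at its brightest probe set, with points spread vertically only for legibility. Filled red points passed the adjusted threshold, open grey points did not, and a black bar marks the median of each group. In the SWEET, carboxypeptidase, beta-glucosidase and vacuolar processing enzyme groups a few genes stand far above medians of -0.08 to 0.04, while for the autophagy and chloroplast genome groups the median itself lies at about 0.4.

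The falls were smaller and began from brighter probe sets than the rises. AT3G10040, listed as HRA1, encodes a transcription factor that restrains the response to low oxygen. It stood at 8.85, 8.67 and 8.65 on the induced arrays and at 10.44, 10.27 and 10.43 on the empty vector arrays. Both groups were tight, and the change was -1.66 ± 0.11 SE (limma adjusted p = 0.000356), or -1.72, -1.55 and -1.71 against empty vector replicates 1, 2 and 3. PDC2, which encodes pyruvate decarboxylase, the first enzyme of alcoholic fermentation, stood at 11.72, 11.62 and 11.65 in induced shoots and at 12.24, 12.28 and 12.53 in empty vector shoots. Its change of -0.69 was the other call of this list of low-oxygen genes, in which 2 were measured and both fell. The call of PDC2 passed only without empty vector replicate 3 among the leave-one-out fits (adjusted p 0.0219 to 0.13).

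UDP-glycosyltransferases attach sugars to hormones, flavonoids and foreign compounds. Of 51 listed and measured genes 6 fell (11.8%, against 0.549% of all genes) and 1 rose (1.96%, against 1.24%), with a median of -0.06. Any members given by locus only are outside these counts and may include further calls in either direction. UGT76B1, whose enzyme glycosylates immune signals, stood at 8.04, 8.02 and 7.50 on the induced arrays and at 9.02, 9.02 and 9.32 on the empty vector arrays. It was lower by 1 or more against each control, and changed by -1.27 ± 0.17, a call lost without empty vector replicate 1 or 2 (limma adjusted p 0.023 to 0.0545). UGT73B5 stood at 8.53, 8.34 and 8.12 in induced shoots against 9.27, 9.07 and 9.36 in empty vector shoots, and its chromosomal neighbour UGT73B4 at 7.48, 7.06 and 6.99 on the induced arrays against 8.07, 7.85 and 8.32 on the empty vector arrays. These neighbours changed by -0.90 and -0.91. UGT76E12 (-0.69), UGT73B1 (-0.61) and UGT88A1 (-0.61) were the other falls. The rise was that of UGT76D1, at 7.43, 7.20 and 7.35 in induced shoots against 6.59, 6.71 and 6.51 in empty vector shoots, a difference of 0.72. None of these passed in every leave-one-out fit. Calls were lost without induced replicate 2 or 3 or empty vector replicate 1 or 2 for UGT73B5 (limma adjusted p 0.0344 to 0.0949), and without induced replicate 1 or 3 or empty vector replicate 1 or 2 for UGT76D1 (0.0247 to 0.104). Each of the others passed in 1 of the 6 fits, UGT73B4 without induced replicate 1 (0.041 to 0.185), UGT76E12 without empty vector replicate 2 (0.0486 to 0.179), and UGT73B1 (0.0264 to 0.189) and UGT88A1 (0.046 to 0.192) without empty vector replicate 3.

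**Figure D5:**
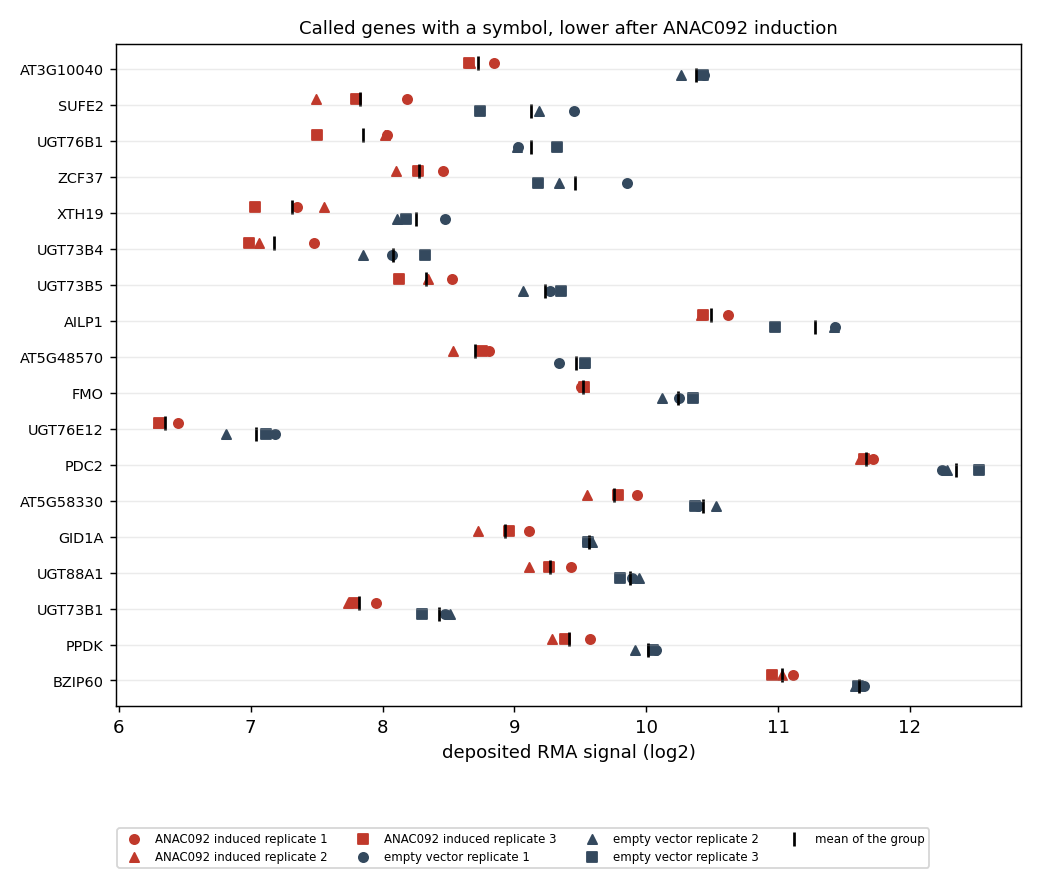
The 18 called genes with a symbol or listed name that were lower after ANAC092 induction, from the largest change at the top. Points are the deposited log2 signals of single arrays, induced in red above and empty vector in dark blue below for each gene, with the replicate given by shape and the group mean by a black tick. AT3G10040 (HRA1) and UGT76B1 lie at least 1 unit below each empty vector array, and PDC2 is the brightest of the 18. AT5G48570 is ROF2 and AT5G58330 is the NADP-malate dehydrogenase gene.

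Falls in enzymes of other pathways followed. SUFE2, which encodes a sulfur transfer protein of iron-sulfur cluster assembly, stood at 8.18, 7.50 and 7.80 on the induced arrays and at 9.45, 9.19 and 8.74 on the empty vector arrays, a change of -1.30 ± 0.23. It was -0.91 against empty vector replicate 3, and the call was lost without induced replicate 2 or 3 or empty vector replicate 1 or 2 (limma adjusted p 0.0269 to 0.144). PPDK, which encodes pyruvate orthophosphate dikinase, an enzyme that feeds nitrogen export from ageing leaves, stood at 9.57, 9.28 and 9.38 in induced shoots and at 10.08, 9.92 and 10.05 in empty vector shoots. Its change was -0.60. AT5G58330, the gene of the light-regulated NADP-malate dehydrogenase of chloroplasts, stood at 9.93, 9.55 and 9.78 on the induced arrays and at 10.40, 10.53 and 10.37 on the empty vector arrays, a change of -0.68. PPDK and AT5G58330 were lower on all induced arrays but passed in 0 of the 6 leave-one-out fits (limma adjusted p 0.0659 to 0.206 and 0.0547 to 0.183).

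ROF2 and BZIP60, both tied to protein folding, fell as well. AT5G48570, listed as ROF2, a heat-responsive immunophilin gene, stood at 8.81, 8.54 and 8.76 in induced shoots and at 9.34, 9.53 and 9.54 in empty vector shoots, a change of -0.77. BZIP60, whose factor switches on the response to unfolded proteins, stood at 11.11, 11.03 and 10.96 on the induced arrays and at 11.65, 11.58 and 11.60 on the empty vector arrays, a change of -0.58 ± 0.09. It was the only call among 22 measured bZIP genes (median 0.01), with both groups tight. The call of ROF2 was lost without induced replicate 1 or 3 or empty vector replicate 1 or 2 (limma adjusted p 0.0376 to 0.106), and that of BZIP60 passed only without empty vector replicate 3 (0.0294 to 0.16).

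XTH19 and GID1A fell by less than 1 on the log2 scale. XTH19, which encodes a xyloglucan-modifying enzyme of growing cell walls, stood at 7.35, 7.56 and 7.03 in induced shoots and at 8.48, 8.11 and 8.18 in empty vector shoots, a change of -0.94 ± 0.16. It was the only call among 29 measured expansin and xyloglucan transglucosylase genes (median -0.02). GID1A, a gibberellin receptor gene, stood at 9.11, 8.72 and 8.96 on the induced arrays and at 9.55, 9.59 and 9.56 on the empty vector arrays, a change of -0.64. Of the receptor's relatives GID1C was at -0.38 and GID1B at -0.28, and neither passed. GID1A passed in 0 of the 6 leave-one-out fits (limma adjusted p 0.0635 to 0.19), and XTH19 only without induced replicate 2 (0.0394 to 0.125). FMO, a flavin-dependent monooxygenase gene, stood at 9.51, 9.53 and 9.53 in induced shoots and at 10.25, 10.12 and 10.35 in empty vector shoots and changed by -0.72 ± 0.10, a call lost without induced replicate 1 or 3 or empty vector replicate 1 (0.0177 to 0.0809). AILP1, named for induction by aluminium, changed by -0.95, -0.93 and -0.49 against empty vector replicates 1, 2 and 3 and passed only without replicate 3 (0.0111 to 0.19). ZCF37 stood at 8.45, 8.10 and 8.27 on the induced arrays and at 9.86, 9.34 and 9.18 on the empty vector arrays, a change of -1.18 that was lost without any one induced array or empty vector replicate 2 (0.0251 to 0.0944).

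Among the 15 lowest changes of probe sets with 1 gene, from -1.66 to -1.12, 11 were of genes given by locus only. AT5G26200 stood at 7.57, 7.62 and 7.51 in induced shoots and at 9.62, 9.06 and 8.80 in empty vector shoots. AT5G19120 stood at 10.33, 10.15 and 10.69 on the induced arrays and at 12.22, 11.93 and 11.67 on the empty vector arrays. In both the control nearest to the induced arrays was empty vector replicate 3, with changes of -1.23 and -1.28 against it and -1.59 and -1.55 over all controls. AT5G42830 stood at 7.04, 7.18 and 6.83 in induced shoots and at 8.26, 8.15 and 8.07 in empty vector shoots, a change of -1.14 ± 0.12. AT3G27220 stood at 8.77, 8.54 and 8.48 on the induced arrays and at 9.82, 9.94 and 9.87 on the empty vector arrays, a change of -1.28 ± 0.11. These 4 loci and AT3G10040 passed in all 6 leave-one-out fits and were the only ones of the 15 to do so. AT3G07310 (-1.36) missed the threshold without empty vector replicate 1 (limma adjusted p 0.0618) and AT1G03610 (-1.12) without empty vector replicate 2 (0.059). The others were AT1G21680 (-1.34), AT3G49790 (-1.23), AT5G24490 (-1.14), AT2G20720 (-1.13) and AT2G04050 (-1.12). Without empty vector replicate 1 or 2 all 5 lost their calls, as did AT1G21680 without induced replicate 3 (limma adjusted p 0.0118 to 0.106), AT3G49790 without induced replicate 1 or 2 (0.0334 to 0.135) and AT5G24490 without any one induced array (0.0101 to 0.111). AT2G20720 and AT2G04050 passed only without induced replicate 1 (0.0226 to 0.154 and 0.0213 to 0.114). Of the unnamed probe sets, 253416_at stood at 9.59, 9.21 and 8.85 in induced shoots and at 11.68, 11.40 and 11.44 in empty vector shoots, the largest fall of all, at -2.29.

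Nuclear genes of photosynthesis lay below 0 in several groups, and none passed. All 8 measured genes of chlorophyll synthesis were below 0, with a median of -0.23 beside -0.02 over all genes. Against empty vector replicates 1, 2 and 3 the median of the 8 was -0.09, -0.31 and -0.41. CHLM, a methyltransferase gene of that pathway, stood at 9.70, 9.55 and 9.55 on the induced arrays and at 10.15, 10.27 and 10.01 on the empty vector arrays and came closest at -0.54 (limma adjusted p = 0.0566). Of the 4 measured genes of the Calvin cycle and photorespiration, the hydroxypyruvate reductase gene HPR stood at 8.75, 8.14 and 8.61 in induced shoots and at 9.34, 9.38 and 9.19 in empty vector shoots (-0.80, adjusted p = 0.0604, limma). The phosphoribulokinase gene PRK stood at 9.74, 9.22 and 9.40 on the induced arrays and at 10.05, 10.12 and 10.14 on the empty vector arrays (-0.65, adjusted p = 0.0788, limma). In CHLM, HPR and PRK the induced arrays were lower without overlap, and induced replicate 2 was the lowest or tied for it. Such a gap was found at 3 of the 8 chlorophyll synthesis genes, 2 of the 4 Calvin cycle and photorespiration genes and 11.1% of all genes. SBPASE (-0.32) and the Rubisco activase gene RCA (-0.15) overlapped between the groups. The 9 measured nuclear photosystem and light-harvesting genes had a median of -0.17 and ran from -0.47 for LHCB4.3 to 0.27 for PSAE-1.

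Many other lists had measured members and no call, which covers only genes with a symbol or listed name. No call was made among 24 cytochrome P450 genes (median -0.04), 24 trichome birefringence-like genes of wall acetylation (-0.13), 14 glutathione S-transferase genes (-0.10), 12 nitrate and peptide transporter genes (-0.12), 11 cellulose synthase family genes (-0.14), 10 auxin genes (-0.01), 8 histone genes (0.21) or 7 WRKY genes (-0.18). For the 16 genes of RALF and other signal peptides the median of 0.14 was 0.03, 0.01 and 0.43 against empty vector replicates 1, 2 and 3, and for the histones it was 0.01, 0.02 and 0.53, so both shifts lie against replicate 3. The jasmonate marker PDF1.2 shows how far a single control could decide a value. It stood at 8.71, 8.27 and 8.86 in induced shoots and at 10.99, 10.83 and 7.80 in empty vector shoots, below the first pair of controls and above the third, with a difference of -1.26 that did not pass (limma adjusted p = 0.586). The cold- and drought-responsive gene COR15A stood at 8.81, 9.29 and 8.80 on the induced arrays and at 7.57, 8.53 and 7.97 on the empty vector arrays and did not pass either (0.94, adjusted p = 0.147, limma). In all, 602 genes of the 74 lists with a measured member were examined, and 23 rose (3.82%, against 1.24% of all genes) and 13 fell (2.16%, against 0.549%). The lists were chosen with earlier results of these data known.

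Among 5814 pairs of adjacent measured genes, 4 had both members called, in each case in the same direction. The share of single genes called, 1.79%, is not a rate for pairs, and an excess of such pairs was not tested. The pairs were AT3G14760 (0.82) with SWEET2 (1.94), AT5G59840 (1.45) with AT5G59845 (2.68), AT1G21670 (-0.72) with AT1G21680 (-1.34), and UGT73B5 with UGT73B4. Hybridisation of related transcripts to the same probes was not tested.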

How the data were processed

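The authors deposited RMA signals on the log2 scale, per the submitters' processing notes. Sample descriptions in the labels name 3 array sets that were normalized apart. Only the set with ANAC092 was used, so no level was compared across sets. RMA equalises the distributions of a set, which hides a shift common to most transcripts. Depth does not apply to arrays, whose number limits the precision.

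From these values, 64 control probe sets were set aside and 22746 were tested in R 4.3.3 with limma 3.58.1 (functions lmFit and eBayes, two-sided, group as the only term). The threshold was an adjusted p of 0.05. On simulated data with known changes, log2 changes of 0.5, 1 and 2 were recovered at 7.5%, 66.7% and 98.5%. Names came from the platform annotation matched to a TAIR10.1 gene table. By these names 13513 probe sets had 1 gene, 503 several and 8730 none, and 13436 matched a locus. No sequences were used, and positions in the gene table served to find adjacent genes and genes of the chloroplast genome. The brightest probe set stood for a gene in list counts (13286 genes).

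Gene lists and the rule for named genes were chosen with earlier results of these data known. The rule took, among probe sets with 1 gene whose groups did not overlap, the 30 highest and 15 lowest called changes, up to 4 called members of each list and any measured member of a short list. The choice of other genes with a symbol, unnamed probe sets and non-passing members of long lists was made with their values in view. The 91 lists, filled by symbol or listed name apart from that of the chloroplast genome, held 602 measured genes, and 17 lists held none. Alternatives left out single arrays, used single controls, averaged induced replicates 1 and 3, or changed the scaling, filter or model.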

Additional observations from a re-analysis of the deposited data

How the results depend on the processing

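The number of called probe sets, 507, ranged from 209 to 787 when 1 array was left out, lowest without empty vector replicate 2 and highest without empty vector replicate 3. It was 29, 35 and 698 with empty vector replicate 1, 2 or 3 as the only control, in fits that give the single control the spread of the induced arrays, and 242 with induced replicates 1 and 3 averaged. Array weights gave 9747 calls, but the estimation of the weights did not converge. Calls that also differed by at least 1 from each empty vector array, 171, ranged from 159 to 230 when 1 array was left out and numbered 29, 35 and 505 with a single control; against one control the criterion is itself weaker. Quantile normalization (558), median centring (520), leaving out the dimmest 25% of probe sets (567) and a robust trended variance (466) kept the count within 1.5 times, and the share of rises moved by less than 10 percentage points. Deviations of same-numbered induced and empty vector arrays from their group means had correlations of -0.107, 0.271 and 0.0968. Those of differently numbered arrays ran from -0.244 to 0.202. With 3 arrays per group these values cannot decide whether the numbers pair the arrays. A replicate block gave 553 calls. For 80 called probe sets of named genes, leaving out or averaging arrays could not turn the direction, because their groups do not overlap. Only a change of scaling could, and there the direction turned in none of the 80 probe sets. Of these, 63, 62 and 41 missed the threshold with empty vector replicate 1, 2 or 3 as the only control and 32 with induced replicates 1 and 3 averaged. Among the fits without 1 array, 36 missed the threshold without empty vector replicate 2, 35 without induced replicate 3, 34 without empty vector replicate 1, 30 and 26 without induced replicates 1 and 2, and 11 without empty vector replicate 3, against 8 with the block and 4 or fewer under each scaling, filter or variance alternative.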
